A study of Mus musculus with 2 samples.

Results

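Tanycytes are glial cells in the wall and floor of the third ventricle of the hypothalamus, and the 500 regions described here were more accessible in alpha tanycytes than in beta tanycytes. They are called alpha regions below. They are 500 of the 107377 regions in the deposited table, chosen with the values of the cells themselves. In each library, the cells of a type were summed, and the level was taken per 1000000 detections (CPM), with 5 added, on a log2 scale. The lower of the alpha1 and alpha2 levels was set against the higher of the beta1 and beta2 levels. The smaller difference of the 2 libraries was the score, and the 500 highest scores were taken. The same rule with alpha and beta exchanged gave 500 beta regions, used here only for comparison, and the sets shared 0 regions.

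The study profiled chromatin accessibility by single-cell ATAC-seq, in which the Tn5 transposase cuts DNA that is not packed away. Mice were at postnatal day 8, and GFP-positive cells were sorted from their mediobasal hypothalamus. Control mice carried Rax-CreER and CAG-lsl-Sun1-GFP, a Cre-dependent nuclear GFP. The Nfia/b/x-deficient mice carried the same alleles and Nfialox/lox, Nfiblox/lox and Nfixlox/lox, floxed genes of the transcription factors NFIA, NFIB and NFIX. Cre and GFP thus depend on the Rax promoter, which is active in tanycytes, and both genotypes carry them. The sources used here do not give the number of animals behind each library. Each genotype has 1 library, so no test between genotypes was made. All intervals are exact 95% intervals for counting error only. They leave out differences between cells and between animals.

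Alpha tanycytes line the wall of the ventricle beside the dorsomedial, ventromedial and dorsal arcuate nuclei, with alpha1 cells above alpha2 cells. Beta1 tanycytes line the ventral arcuate wall, and beta2 tanycytes form the floor over the median eminence, where they touch fenestrated capillaries. Alpha tanycytes share many genes with astrocytes and are known as cells that can give rise to glia and neurons, while beta2 tanycytes are known for barrier and transport roles. Accessible regions are mostly promoters and enhancers, and the distal ones tend to differ most between cell types.

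The control library held 8948 cells with a median of 4549.5 detections per cell, where a detection is 1 region open in 1 cell. The deficient library held 13337 cells with a median of 4042. Alpha1 tanycytes numbered 473 control and 669 deficient cells, alpha2 4306 and 4902, beta1 1558 and 2448, and beta2 904 and 1003. The types are those of the deposited annotation, and they could not be checked against marker genes because the table gives regions row numbers and no positions. For the same reason no region is placed in the genome or next to a gene here, and no sequence is shown. Over regions outside the alpha and beta sets, 92.4% of control and 83.3% of deficient alpha2 cells were nearest to their own type's profile. For beta1 cells the shares were 66.8% and 71.7%, and 27.5% and 21.9% were nearest to an alpha profile instead. The libraries shared 204 cell barcodes, of which 43 carried the same type in both.

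The alpha regions were lower in beta than in alpha tanycytes, and in beta1 cells a typical alpha region was still above the median region. A typical alpha region had a level of 10.6 CPM in control alpha2 cells (median of 500) and 13.0 in alpha1 cells, against 5.33 in beta1 and 3.36 in beta2 cells. In the deficient library the medians were 11.4 in alpha2, 13.3 in alpha1, 5.89 in beta1 and 3.32 in beta2 cells. The beta1 medians stood above the median of all regions in the same cells, which was 4.10 in the control library, with 4.40 in the deficient one. The beta2 medians stood below it, at 4.07 and 4.42. Summed, the alpha regions took 3.63 of every 1000 detections of control beta1 cells and 3.92 of deficient ones. Both sums were below the 4.66 that 500 average regions take. These levels chose the regions and are given as a description. The part of the beta1 cells nearest to an alpha profile in the beta1 levels was not tested.

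The scores were modest, since the rule asks for the least favourable pair of types and the less favourable library. They ran from 0.36 to 1.00 with a median of 0.42, a 1.34-fold difference on the scale with 5 added. Region 18503 had the lowest score of a member and region 74185 the highest of the regions left out. Their scores were 0.3552 and 0.3549, so the boundary of the set falls in a continuum. Summed over all 500 regions, alpha2 cells stood 1.87-fold above beta1 and 2.84-fold above beta2 cells in the control library, and 1.78-fold and 2.95-fold above them in the deficient library.

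**Figure D1:**
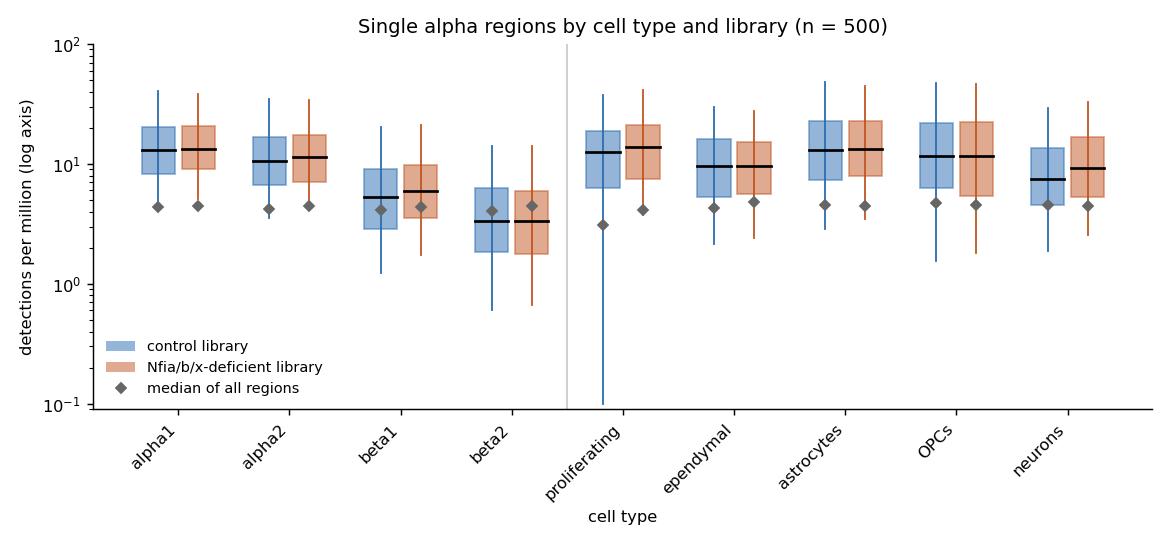
Level in CPM (log axis) of the 500 alpha regions in each cell type and library. Boxes span the quartiles, black lines are medians, whiskers run from the 5th to the 95th percentile, diamonds are medians of all regions, and the whisker of control proliferating tanycytes ends at 0, drawn at the bottom. The boxes of both beta types sit lowest, with beta2 medians of 3.36 and 3.32, and those of the 5 types right of the grey line overlap the alpha boxes.

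Region 47464 had the highest score. It was found in 384 of 4306 control alpha2 cells (8.92%, 8.08 to 9.81%) and in 31 of 1558 control beta1 cells (1.99%, 1.36 to 2.81%). In CPM, control alpha1 cells had 17.3, alpha2 cells 13.5, beta1 cells 4.24 and beta2 cells 3.86. The deficient library had 21.8, 16.3, 4.92 and 1.99 in the same order. Among types that the rule did not use, astrocytes were at the alpha level, at 15.4 CPM for control and 20.3 CPM for deficient cells. Control neurons were at the beta level (4.78, 2.84 to 7.56) and deficient neurons were higher (11.3, 9.28 to 13.6).

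The next 2 regions were higher than it in control neurons, where region 47464 had 4.78 CPM. Region 67339 had 27.6 CPM in control alpha2 and 14.7 in deficient alpha2 cells, against 8.33 and 4.92 in beta1 cells. It was high in control astrocytes (27.3), OPCs (27.4) and neurons (19.9). In the deficient library it had 31.0, 15.3 and 10.1 in the same order, where region 47464 had 20.3, 16.2 and 11.3. Region 37177 had 20.8 and 16.5 in alpha2 cells and 8.61 and 5.94 in beta1 cells. Its levels in neurons, 18.1 and 18.8, were close to those of alpha2 cells in both libraries. The highest scores therefore do not mark regions that were open in alpha tanycytes alone.

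The rule does not fix how the alpha types, or the beta types, stand to each other, and the regions were graded along the order alpha1, alpha2, beta1, beta2. The summed regions took 8.07 of every 1000 detections of control alpha1 cells and 6.79 of alpha2 cells, but 3.63 of beta1 and 2.39 of beta2 cells. The deficient library had 8.26, 6.98, 3.92 and 2.36. The log2 ratio of alpha1 over alpha2 was 0.25 (0.23 to 0.27) in the control library, with 0.24 (0.22 to 0.26) in the deficient one. That of beta1 over beta2 was 0.60 (0.57 to 0.63) and 0.73 (0.70 to 0.76). Of the 500 regions, 245 (49%) had alpha1 above alpha2 and beta1 above beta2 in both libraries, where 13.5% of all regions did. The reverse order within both pairs was found for 2 regions (0.4%), against 15.2% of all regions.

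Alpha1 and beta2 have fewer cells than their partners, so the gradient was also read in the library that the choice did not use. Regions chosen by the same score in the control library alone had 6.54, 5.43, 3.31 and 1.76 per 1000 detections in deficient alpha1, alpha2, beta1 and beta2 cells. Regions chosen in the deficient library alone had 6.28, 5.74, 3.22 and 2.10 in control cells. The order was the same in both. Of the control choice, 326 of 500 regions (65.2%) were graded in the deficient library, against 26.8% of all regions. Of the deficient choice, 243 (48.6%) were graded in the control library, against 24.5%.

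Much of the alpha to beta difference carried over to the library not used. Of the regions chosen in the control library, 467 of 500 (93.4%) had a score above 0 in the deficient library, where 22.6% of all regions did. Their median score there was 0.32, or 1.25-fold, against -0.17 for all regions. Of those chosen in the deficient library, 448 (89.6%) had a score above 0 in the control library, against 24.1% of all regions, with a median of 0.37. The alpha regions held 217 of the control choice and 258 of the deficient choice. Alpha2 over beta1 cells had a log2 ratio of 0.71 (0.70 to 0.73) for the control choice in the deficient library and 0.84 (0.82 to 0.86) for the deficient choice in the control library. In the library of the choice, which favours it, the ratios were 1.06 and 0.95. Each choice thus gave the larger difference in its own library, so these data do not order the genotypes by it.

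Single regions varied around the gradient. Alpha1 was 2-fold or more above alpha2 in both libraries for 15 of 500 regions (3%), against 1.33% of all regions tested, and 2-fold or more below it for 0 regions, against 0.433%. These calls used ratios of CPM with 1 added, and regions with at least 50 detections over the types and libraries compared. The rule used the alpha levels of both libraries, and these counts were not read in a library left out of the choice. They are given as a description. Region 57227 had the highest ratio, with 18.2 CPM in control alpha1 against 3.60 in control alpha2 cells, and 22.5 against 5.60 in the deficient library. Region 80280 had the lowest, with 10.4 in control alpha1 (24 cells) against 15.4 in alpha2 (437 cells), and 12.9 against 21.4 in the deficient library.

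Outside the types that the rule used, alpha regions stood above beta levels, and in several types at alpha levels. These types are proliferating tanycytes, ependymal cells (ciliated cells lining the ventricle), astrocytes, oligodendrocyte precursor cells (OPCs) and neurons. Astrocytes had the highest sums of the 5 types, 8.67 (8.53 to 8.81) of every 1000 detections in the control library, with 8.60 (8.43 to 8.77) in the deficient one. OPCs had 8.05 and 8.12. Ependymal cells had 5.89 and 5.88, and neurons had 5.28 (5.20 to 5.35) and 6.23 (6.19 to 6.28). Proliferating tanycytes had 7.01 (6.72 to 7.30) from 63 control cells and 8.34 (8.26 to 8.42) from 1033 deficient cells. All 10 sums stood above both beta sums of their library. The rule selected those beta levels as low, which favours this order.

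All 10 sums also stood above the 4.66 per 1000 that 500 average regions take, but this depended on the pseudocount in the rule. Over all cells, alpha regions were more accessible than most, found in a median of 1123 cells against 496 for all regions. These cells include the alpha cells whose high levels chose the regions, and the part of that choice was not tested. With a pseudocount of 1 in place of 5 in the rule, 5 of 10 sums stood above that mean and all 10 stayed above both beta sums. With mean alpha against mean beta levels in the rule, 9 of 10 stayed above both beta sums. These forms of the rule select low beta levels as well. In a library that the choice did not use, the 5 types ranged from 4.71 (neurons) to 8.14 (astrocytes) for the control choice, against 3.31 in beta1 cells. For the deficient choice they ranged from 4.59 (neurons) to 7.33 (astrocytes), against 3.22 in beta1 cells.

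**Figure D2:**
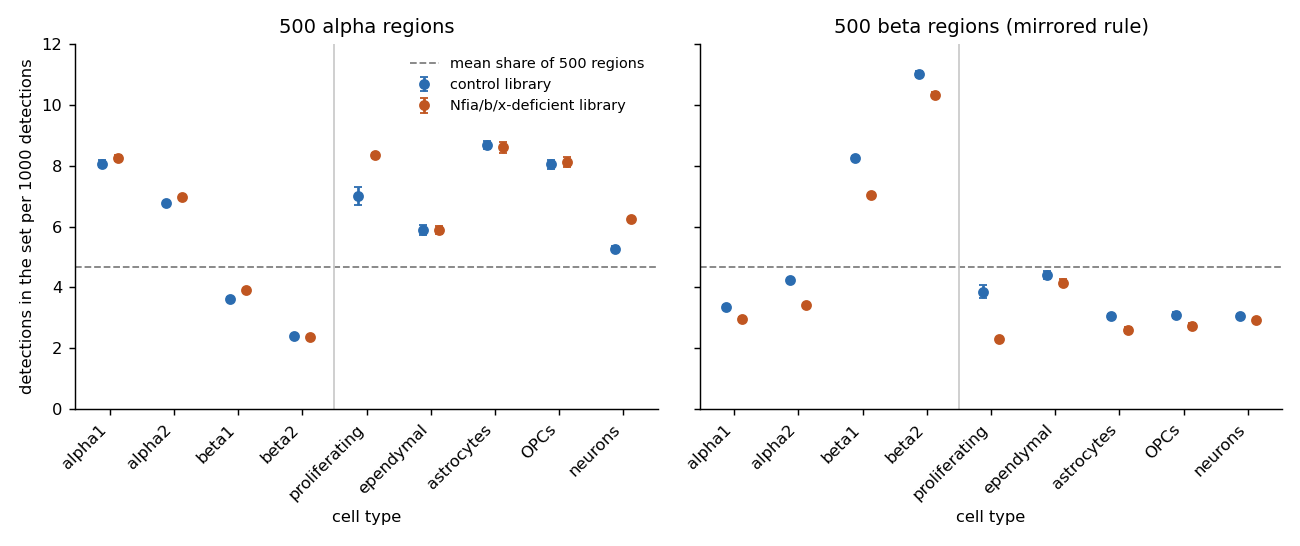
Share of detections that fell in the 500 alpha regions (left) and the 500 beta regions (right), per 1000 detections of a type, with 95% Poisson intervals for counting error. Types left of the grey line were used to choose the regions, and the dashed line is the share of 500 average regions, 4.66. Right of the line the alpha regions lie above it (5.28 to 8.67) and the beta regions below it (2.30 to 4.41).

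The beta regions gave the opposite picture in these types. They took from 2.30 (deficient proliferating tanycytes) to 4.41 (control ependymal cells) of every 1000 detections, and 0 of 10 sums reached the mean share. The sets also differed in accessibility over all cells, which include the alpha and beta cells whose levels chose them. Alpha regions were found in a mean of 1375 cells, beta regions in 1068 and all regions in 1049. The part of this in the difference between the sets was not tested. No test of this difference between the sets could be made with 1 library per genotype. It had the same direction in both.

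Single alpha regions were also placed against their own alpha and beta levels. Of the 500, 397 (79.4%) were at or above their lower alpha level in at least 1 of the 5 other types in both libraries, and 84.5% of all regions were. The shares were 28.4% against 35.3% for at least 3 types and 1.4% against 4.11% for all 5. These 3 shares were lower among alpha regions than among all regions. By type, 257 regions (51.4%) did so in astrocytes, against 41.9% of all regions, 202 (40.4%) in OPCs, against 37.6%, and 191 (38.2%) in proliferating tanycytes, against 33.1%. The counts were lower in neurons, at 109 (21.8%) against 45.1%, and in ependymal cells, at 104 (20.8%) against 41.6%.

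Few alpha regions were at or below their higher beta level in the other types. In both libraries, 87 (17.4%) were so in neurons, against 50.4% of all regions, 48 (9.6%) in OPCs, against 49.7%, and 34 (6.8%) in ependymal cells, against 43.6%. Astrocytes had 18 (3.6%), against 45.7%, and proliferating tanycytes 6 (1.2%), against 43.9%. At or below the beta level in all 5 types were 0 of 500, against 15% of all regions. The rule selected these alpha levels as high and these beta levels as low, which moves both kinds of count down among the alpha regions, so nothing is read from their distance to all regions.

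**Figure D3:**
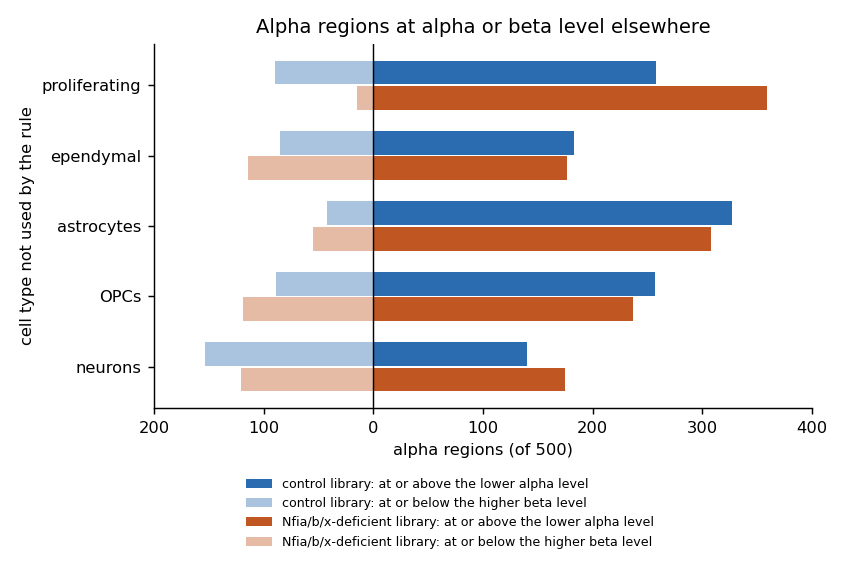
Number of the 500 alpha regions at or above their lower alpha level (right of 0) and at or below their higher beta level (left of 0) in each cell type that the rule did not use, by library. Astrocytes have the longest right-hand bar in the control library (327) and proliferating tanycytes in the deficient library (359). Control neurons are the only bar pair whose left side (154) is longer than its right (140). Over all regions, counted in both libraries at once, the left-hand share was the larger in every type (50.4% against 45.1% in neurons). Shares of all regions by single library are not given, so nothing is read from the bars.

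The regions were split by rank of score into groups of 100, from the highest to the lowest. In both libraries, 84, 71, 84, 82 and 76 reached the alpha level in at least 1 other type, against 84.5% of all regions. In at least 3 types, 24, 24, 30, 31 and 33 did, more among the lower scores, against 35.3% of all regions. The log2 ratio of astrocytes over alpha2 cells lay between 0.27 and 0.43 in the control library over the 5 groups of 100 regions by rank, and between 0.19 and 0.37 in the deficient library. The ratio of neurons over alpha2 cells lay between -0.43 and -0.31 in the control library and between -0.23 and -0.14 in the deficient library. Neurons were below alpha2 cells, and astrocytes above them, in every group by rank in both libraries. The rule selected the alpha2 levels as high, and its score formed the groups. This moves other types down against alpha2 cells, so nothing is read from the place of neurons or the trend with rank.

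Contrasts between the other types used levels that the rule did not. Of the 500 alpha regions, 462 to 490 had the 50 detections needed in a contrast with neurons, and without that minimum the shares above neurons were 20.2% for astrocytes, 13.4% for OPCs and 6.0% for proliferating tanycytes. Astrocytes were 2-fold or more above neurons in both libraries for 99 of 478 tested regions (20.7%), against 3.65% of all regions tested, and below neurons for 11 (2.30%), against 6.74%. OPCs were above neurons for 64 of 462 (13.9%), against 3.66%, and below for 11 (2.38%), against 5.54%. Proliferating tanycytes were above neurons for 30 of 490 (6.12%), against 0.874%, and below for 1 (0.204%), against 4.7%. The median log2 ratio of astrocytes over neurons for alpha regions was 0.65 in the control library, with 0.46 in the deficient one, and for all regions tested it was -0.032 and -0.066. Among the alpha regions, astrocytes, OPCs and proliferating tanycytes were thus above neurons more often than the reverse. Over all regions tested they were below neurons more often. With a pseudocount of 5 in these ratios the share above neurons was 10.3% for astrocytes, 7.79% for OPCs and 1.63% for proliferating tanycytes. For proliferating tanycytes it was 3.24% among regions with at least 200 detections and 9.46% in cells thinned to 2000 detections. Shares of all regions are given only for the pseudocount of 1 and the minimum of 50 detections. The shares under other settings are therefore not to be set against them.

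Ependymal cells, the neighbours of alpha tanycytes in the ventricle wall, stood apart from astrocytes. They were 2-fold or more below astrocytes for 53 of 310 tested regions (17.1%), against 2.24% of all regions tested. They were above astrocytes for 4 (1.29%), against 1.81%. The median log2 ratio of ependymal cells over astrocytes was -0.56 in the control library, with -0.58 in the deficient one. Without the minimum, over all 500 regions, 14.2% were below astrocytes and 1.4% above. The share below astrocytes was 11.3% with a pseudocount of 5 and 27.1% in thinned cells. Against neurons, ependymal cells were above for 30 of 469 (6.40%), against 4.41% of all regions tested, and below for 27 (5.76%), against 7.86%. The summed ratio to neurons was 0.16 (0.11 to 0.20) in the control library, with -0.084 (-0.12 to -0.049) in the deficient one, so its sign differed between the libraries. There were 133 control and 265 deficient ependymal cells, and 16.5% and 56.6% of them were nearest to the ependymal profile. In cells nearest to their own type, an alternative added after seeing the data, the share of regions below astrocytes was 43.6%. No share of all regions is given for these other settings.

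Individual regions show these patterns, each chosen by the lower of its levels in the 2 libraries, so that another region can be higher in 1 library. Region 91612, the highest of the set in OPCs by that measure, stood at 92.3 (control) and 87.4 (deficient) CPM in OPCs. It was at 51.8 and 54.8 in astrocytes, 29.2 and 26.4 in alpha2 cells, 18.9 and 16.3 in beta1 cells and 15.7 and 22.8 in neurons. This region was thus higher in OPCs than in any tanycyte type of either library. Region 10713, the highest in astrocytes, had 79.8 and 80.5 there, 46.2 and 53.2 in alpha2 cells, and 25.2 and 29.2 in beta2 cells. Region 35320, the highest in neurons, had 69.6 and 71.9 in neurons against 27.2 and 38.7 in alpha2 and 7.52 and 10.8 in beta2 cells. It had rank 4 by score, and its level in OPCs was 79.0 and 94.6, in the deficient library above that of region 91612. Region 85245, the highest in ependymal cells, had 44.8 and 47.6 there and 41.6 and 40.9 in alpha2 cells. Region 18619, the highest in proliferating tanycytes, had 65.5 (21 of 63 cells) and 61.8 there, and 56.2 and 50.5 in alpha2 cells.

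Proliferating tanycytes lay on the alpha side. Their detections in alpha regions were 1.82 times those in beta regions in the control library (1.69 to 1.95) and 3.63 times in the deficient library (3.56 to 3.71), or 0.86 and 1.86 on the log2 scale. In alpha2 cells the ratio was 1.60 and 2.04, and in alpha1 cells 2.40 and 2.77. In beta1 cells it was 0.440 and 0.558, and in beta2 cells 0.217 and 0.229. The control value rests on 63 cells, none of which was nearest to the profile of its own class, and 53.6% of the 1033 deficient cells were. The part of cell numbers and class makeup in the difference between the ratios was not tested. The ratio was also above 1 in the other types, from 1.33 and 1.41 in ependymal cells to 2.83 and 3.31 in astrocytes. An excess of alpha over beta regions was thus shared by all types except the beta tanycytes. All cells include the alpha and beta cells whose levels chose the sets. Over all cells, alpha regions were found in a mean of 1375 cells and beta regions in 1068. The part of this in the ratios was not tested.

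Within a type, counts of alpha regions varied between cells. Each cell was thinned to 2000 detections, which left out 2391 of 22285 cells. Control alpha2 cells then held a median of 14 alpha regions (5th to 95th percentile 6 to 23), alpha1 cells 16 (9 to 25.1), beta1 cells 7 (2 to 14) and beta2 cells 3 (1 to 11). Deficient cells had medians of 14, 16, 7 and 4. The rule chose the regions on the summed levels of these same cells, which favours the distance between alpha and beta medians. The medians are given as a description. Unthinned, the control medians were 36 in alpha2, 34 in alpha1, 13 in beta1 and 8 in beta2 cells. In control cells the variance was 1.54 times the mean for alpha1, 1.82 for alpha2, 1.81 for beta1 and 2.45 for beta2, where a value near 1 would come from counting alone. Other types had such values too, with 2.08 in control and 2.20 in deficient neurons and 2.52 in control proliferating tanycytes.

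The distributions of neighbouring types overlapped. The alpha and beta regions were chosen on the summed levels of these cells, which moves the alpha and beta types apart. The part of that choice in the shares and correlations below was not tested. In the control library 5.31% of beta1 cells held at least as many alpha regions as the median alpha2 cell, and 9.35% of alpha2 cells held no more than the median beta1 cell. The deficient library had 7.22% and 9.51%. Across control alpha2 cells, counts of alpha and beta regions had a correlation of -0.47 over 4031 cells, and -0.44 over 4574 deficient alpha2 cells. Within beta1 cells it was -0.47 (1413 cells) and -0.46 (2133 cells). Cells of a type share a library and its annotation, so these correlations describe the libraries. The correlation was negative in all 9 types of both libraries, from -0.14 in control neurons to -0.47, with -0.37 and -0.34 in astrocytes and -0.24 and -0.29 in OPCs. It is thus no trait of tanycytes alone. Among beta1 cells, 27.5% and 21.9% were nearest to an alpha profile, and the part of annotation errors in the spread was not tested.

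**Figure D4:**
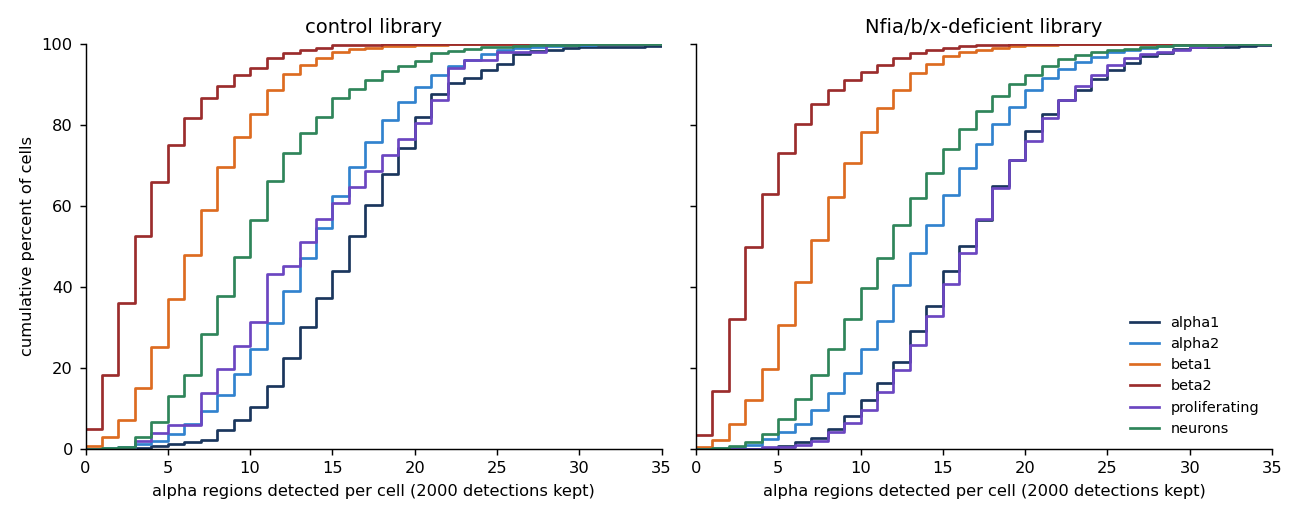
Cumulative percent of cells (vertical) by the number of alpha regions detected in a cell thinned to 2000 detections (horizontal), for 6 cell types in each library. Curves run from beta2 (control median 3) and beta1 (7) through neurons (10) to alpha2 (14) and alpha1 (16), and proliferating tanycytes lie by alpha2 in the control library and by alpha1 in the deficient library.

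Between the libraries, the log2 ratio of the summed alpha regions lay between -0.016 and 0.11 in alpha and beta tanycytes. The log2 ratio of deficient over control sums was 0.042 (0.032 to 0.051) in alpha2, 0.034 (0.0061 to 0.061) in alpha1, 0.11 (0.087 to 0.13) in beta1 and -0.016 (-0.054 to 0.022) in beta2 cells. The rule took both libraries' levels in these types but not their ratio, and a region had to pass in both. The ratio was 0.24 (0.22 to 0.26) in neurons and 0.25 (0.19 to 0.31) in proliferating tanycytes. In ependymal cells, astrocytes and OPCs its interval included 0 (-0.00086, -0.012 and 0.013).

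The direction of these ratios rested on which library chose the regions. Regions chosen in the control library alone had -0.29 in alpha2 cells, -0.32 in alpha1 cells, -0.10 in neurons and -0.17 in proliferating tanycytes. Regions chosen in the deficient library alone had 0.25 in alpha2 cells, 0.40 in neurons and 0.48 in proliferating tanycytes. The ratios in neurons and proliferating tanycytes, whose levels the rule did not use, had no direction that held under both choices. In alpha2 cells the sign also changed with mean levels in the rule (-0.049), and the ratio was 0.0014 in thinned cells. In proliferating tanycytes it was 0.071 with mean levels in the rule. In alpha1 cells it was -0.011 with median-of-ratios scaling and -0.062 with mean levels in the rule.

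Region by region, few alpha regions passed 2-fold in alpha2 cells. All 500 alpha regions had the detections needed there. Of them 14 (2.80%) were 2-fold or more higher in the deficient library, against 1.15% of all regions tested, and 12 (2.40%) were lower, against 2.97%. The rule used the alpha2 levels of both libraries, so these shares are given as a description. In the other types fewer alpha regions passed the minimum, in proliferating tanycytes mostly through the 1033 deficient cells, so counts of single regions are not given for them.

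**Figure D5:**
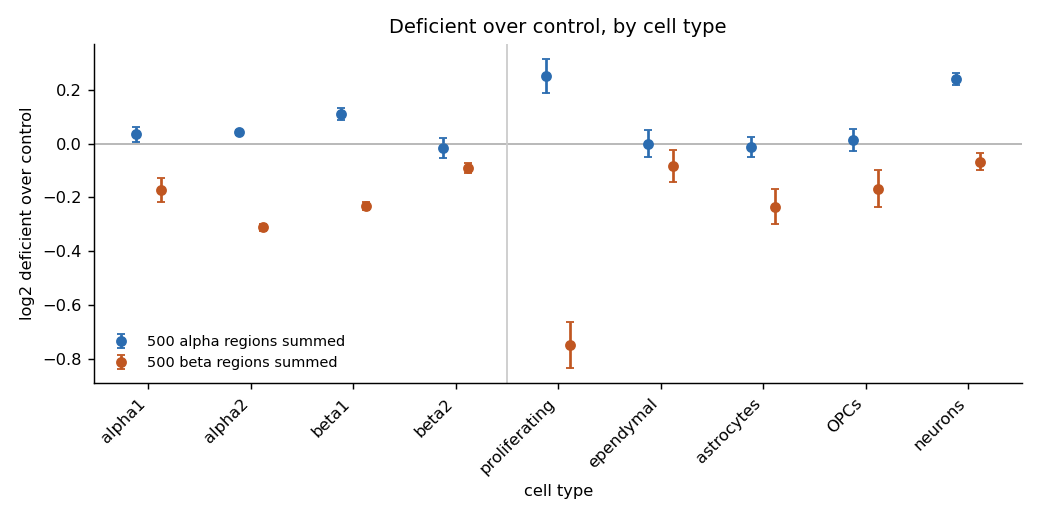
Log2 ratio of deficient over control by cell type for the 500 alpha regions summed (blue) and the 500 beta regions summed (orange), with 95% intervals for counting error. Types left of the grey line were used to choose the regions. Blue points lie between -0.016 and 0.25 and orange points between -0.75 and -0.067. The sign of the blue points in alpha2 cells, neurons and proliferating tanycytes changed when regions were chosen in the control library alone. For the orange points this was not tested.

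The regions with the highest ratio in alpha2 cells were regions 20228 and 54374. Region 20228 was found in 124 control and 364 deficient alpha2 cells, or 4.37 and 14.0 CPM, a log2 ratio of 1.48. In proliferating tanycytes it had 6.23 (2 cells) and 23.7, and in neurons 9.04 and 19.8. Region 54374 was found in 61 control and 202 deficient alpha2 cells, or 2.15 and 7.75 CPM (1.47), and had 2.66 and 10.1 in neurons. Both were thus higher in deficient neurons as well.

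The lowest ratios were those of regions 58046 and 90177. Region 58046 had 24.6 CPM in control alpha2 cells (698 cells) and 7.21 in deficient ones (188 cells), a log2 ratio of -1.64. It had 37.7 and 11.6 in alpha1, 17.9 and 4.40 in beta1, 10.9 and 3.76 in neurons and 50.7 and 28.3 in astrocytes. In ependymal cells its levels were 13.9 (13 cells) and 13.7 (17 cells). Region 90177 had 17.5 and 6.29 in alpha2 cells (-1.34), 11.2 and 3.79 in beta1 cells and 6.91 and 2.54 in neurons. The alpha to beta difference was kept in both libraries at these regions, as the rule requires, while the level moved in alpha and beta tanycytes together.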

How the data were processed

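Single-cell ATAC-seq was made from sorted cells of 1 control and 1 Nfia/b/x-deficient library. Per the labels' protocols, reads were processed by Cell Ranger ATAC at its defaults. The submitters' processing notes name mm10, MACS2, Seurat, Signac 0.2.5 and Cell Ranger 3.1, with no roles. Region calling, cell filters, doublet treatment and type naming are not given in the sources used here. As the authors deposited it, the table holds presence or absence of 107377 regions in 22285 cells (112651747 entries) with no counts of fragments, which understates regions open in most cells. Its cells carry no names and were taken in the order of the deposited annotation. With that order 80.8% of control and 76.0% of deficient cells were nearest to the profile of their own type, built from other cells over regions outside both sets, against 32.6% and 24.5% with types shuffled within the library.

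Cells are not replicates, so the detections of each type were summed by library and divided by that sum over every region. Sums have exact Poisson intervals, shares of cells exact Clopper-Pearson intervals and ratios exact conditional binomial intervals, at 95%. A pseudocount of 1 CPM was added in single-region ratios, which needed at least 50 detections and were called at 2-fold. Regions are named by row number, counted from 1. Named were the 3 highest scores, the scores at the boundary, the 2 highest and 2 lowest ratios between libraries in alpha2 cells with at least 200 detections, the highest level in each of 5 other types and the extremes of alpha1 over alpha2. The members and lists were chosen with earlier results of these data known. The statistics were checked on simulated data. The tools were matplotlib 3.10.9, pandas 2.3.3, scipy 1.17.1, numpy 2.4.6 and Python 3.11.15. Alternatives were other scaling, pseudocounts, minimums, numbers of regions and forms of the rule, a choice in 1 library, thinned cells and the deepest 5% of cells left out. Added after seeing the data were cells nearest to their own type and shared barcodes left out.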

Additional observations from a re-analysis of the deposited data

How the results depend on the processing

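No paired analysis was possible because each genotype has 1 library. The log2 ratio of alpha1 over alpha2 stayed above 0 under every alternative run. In the control library it was 0.33 with median-of-ratios scaling, 0.22 in thinned cells, 0.21 without the deepest 5% of cells, 0.27 with 200 regions, 0.36 with a pseudocount of 1 in the rule, 0.69 with mean levels in the rule, and 0.30 and 0.13 with regions chosen in the control or deficient library alone. In the deficient library it was 0.30 with median-of-ratios scaling, 0.22 without the deepest cells, 0.27 with 200 regions, 0.31 with the pseudocount of 1, 0.68 with mean levels, 0.27 and 0.21 with the choice in 1 library, and 0.29 in cells nearest to their own type, an alternative added after seeing the data. Mean levels gave 78.2% of regions graded along the 4 types. Alpha over beta regions in proliferating tanycytes stayed above 0 (log2) in every alternative that could be computed. The control value was 1.02 in thinned cells and with 200 regions, 1.43 with mean levels, and 1.01 and 0.68 with the choice in the control or deficient library. The deficient value was 1.93 in thinned cells, 1.90 without the deepest cells, 2.21 and 1.71 with 200 and 1000 regions, 2.09 with the pseudocount of 1, 2.10 with mean levels, and 1.49 and 1.92 with the choice in 1 library. No control proliferating cell was nearest to its own type, so that alternative gave no value for this class. The deficient over control ratio in alpha2 cells was 0.016 with median-of-ratios scaling, 0.0014 in thinned cells, 0.020 without the deepest cells, 0.096 and 0.029 with 200 and 1000 regions, 0.11 with the pseudocount of 1, -0.049 with mean levels, and -0.29 and 0.25 with the choice in 1 library. In neurons it was 0.18 with median-of-ratios scaling, 0.27 and 0.21 with 200 and 1000 regions, 0.28 with the pseudocount of 1, 0.21 with mean levels, -0.10 and 0.40 with the choice in 1 library, and 0.33 in cells nearest to their own type. In alpha1 cells it was -0.011 with median-of-ratios scaling, -0.062 with mean levels and -0.32 with the control choice, which gave -0.17 in proliferating tanycytes. The share of tested regions above neurons with a pseudocount of 5 was 10.3% in astrocytes, 7.79% in OPCs and 1.63% in proliferating tanycytes. For proliferating tanycytes it was 9.46% in thinned cells and 3.24% with a minimum of 200 detections, and for OPCs 21.25% in cells nearest to their own type. Ependymal cells were below astrocytes for 11.3% with that pseudocount, 27.1% in thinned cells and 43.6% in cells nearest to their own type. No share of all regions is given for these alternatives. With the pseudocount of 1 in the rule 5 of 10 sums exceeded the mean share. Scores above 0 in the other library were 88.4% and 83.6% with that pseudocount and 90.0% and 84.8% with 1000 regions, for the control and deficient choice. Regions with another member near them were 11.2% within 5 rows, and in the next row 6.1% with 1000 regions, 6.4% with the pseudocount of 1 and 4.2% with mean levels. The cause of these changes was not tested. Depth limits single regions most in the 63 control proliferating and 133 control ependymal cells, where 1 detection is a large part of a region's level.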

Other observations

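Some alpha regions lay next to each other in the table. Another alpha region stood in the next row for 14 of 500 regions (2.80%), in 8 adjacent pairs, and for 13 of the 500 beta regions, in 7 pairs. Regions 36818, 36819 and 36820 formed 1 run, and regions 102628, 102629 and 102630 another. Within 5 rows the counts were 56 alpha and 45 beta regions. No such count was made for 500 rows taken at random, so nothing is read from these counts. Over all regions, the mean correlation of accessibility profiles across types and libraries was 0.095 between a row and the next and 0.0099 between rows 1000 apart. The sources used here do not say what the row order stands for.

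Across the 500 alpha regions, levels on the log2 scale were most alike between the libraries in astrocytes (Pearson r = 0.89) and least alike in proliferating tanycytes (0.56), where the control library had 63 cells. Within the deficient library, levels in proliferating tanycytes correlated with those in alpha2 cells (0.92) and in neurons (0.86). In the control library the values were 0.75 and 0.57. These are correlations across regions, which are not independent replicates, and types of different depth share each library.

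The beta regions, which were chosen by the same rule in both libraries, had lower sums in the deficient library in all 9 types. The log2 ratio ran from -0.067 in neurons to -0.75 in proliferating tanycytes, with -0.31 in alpha2 and -0.23 in beta1 cells. The alpha regions had 0.042 and 0.11 in the last pair of types. The ratio of the beta regions was not taken under any alternative. Whether its sign depends on the library of the choice, as for alpha regions, was not tested.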
